A study of Mus musculus with 4 samples.

Results

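The 9 immediate early genes described here are Egr1, Egr2 and Egr3, Nr4a1, Nr4a2 and Nr4a3, and Ier2, Ier3 and Ier5. They were chosen by gene symbol as immediate early genes outside the AP-1 family, and each matched 1 of the 22558 rows of the count table. All 9 also passed the filter on low values that left 11711 genes for the test. The libraries came from activated lung group 2 innate lymphoid cells (ILC2s), lymphocytes that carry no antigen receptor and answer the epithelial cytokine IL-33. There were 2 libraries from WT mice (C57BL/6, genotype wildtype) and 2 from mice labelled ICAM-1 KO, here called the KO-labelled libraries, a strain made deficient in the adhesion molecule ICAM-1 in all tissues and not in ILC2s alone (allele Icam1 tm1Jcgr, per the study's methods). Both groups were 6 weeks old and had received rm-IL33 intranasally 3 times at 0.5 µg. Each library was a pool of 4 mice, so a library is the replicate and differences between single mice are not seen. No library of naïve ILC2s or of mice without IL-33 was among the samples, so the values are those of activated cells in both groups.

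Immediate early genes are transcribed within minutes of a stimulus without new protein synthesis, and their RNAs are short-lived. The Egr genes encode zinc finger transcription factors, and the Nr4a genes encode orphan nuclear receptors that act without a classical hormone ligand. In lymphocytes both families are known as early outputs of antigen receptor, ERK and calcium signals, and as restraints on activation when signalling lasts. The Ier genes are grouped by their rapid response and not by 1 shared function. Such genes are also known to be switched on while tissue is dissociated. The study's methods give a collagenase digestion of the lungs for 1 h at 37 °C, and do not give it by group or library.

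The libraries held between 24796148 and 28782471 counts. Icam1, the targeted gene, was at 2579 and 2630 counts in WT and at 2812 and 3453 counts in the KO-labelled libraries, with an adjusted p of 0.0745 (edgeR). Its RNA was thus not lower in the KO-labelled libraries, and the gene-level count does not show which exons were read. The study states that mice of this strain lack ICAM-1, a protein it measured by flow cytometry on activated lung ILC2s. The libraries measure RNA and not protein, and every direction below rests on the labels. The 12 ILC2 markers listed, among them Gata3, Il7r and Il1rl1, were all measured, 2 of them called higher and 3 lower. The 3 were Il2ra, Il5 (log2 fold change -0.76, adjusted p = 0.0027, edgeR) and Il13 (-1.45, adjusted p = 0.0025). The markers had summed normalized counts of 5965 and 6571 in WT and 5706 and 5918 in the KO-labelled libraries. Markers of other lung cells differed between the groups, although the sort excluded cells with T cell, B cell and myeloid surface markers. The summed endothelial markers ranged from 154 to 156 in WT and from 384 to 408 in the KO-labelled libraries, with 9 of 9 markers higher. Macrophage and monocyte markers (6 of 8 tested higher) went from 241 and 260 to 522 and 775. T cell markers (4 of 7 higher) went from 291 and 380 to 597 and 734. B cell markers (4 of 5 higher) went from 156 and 144 to 299 and 240.2. Epithelial markers (3 of 6 higher) went from 409 and 181 to 517 and 1318. The epithelial sums include Scgb1a1, at 338 and 142 in WT and 123 and 510 in the KO-labelled libraries, which was not called (adjusted p = 0.65, edgeR). Neutrophil markers were higher in 3 of 5 tested and NK cell markers in 1 of 2, fibroblast markers and mast cell and basophil markers in 0 of 5 each, and of 4 eosinophil markers 2 were higher and 2 lower. The eosinophil gene Epx was at 0 counts in both KO-labelled libraries.

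Levels of different genes were compared per length, as TPM, the share of a library's length-corrected counts that falls on a gene on the usual scale, computed from the counts and the exon length of each gene. Ier2 and Nr4a1 were by far the most abundant of the 9. Ier2 averaged 524 ± 84.3 TPM and Nr4a1 479 ± 55.1 TPM (SD, n = 4 libraries of both groups), and their ranges over the libraries overlapped. Of all genes tested, 97.5% had a lower mean TPM than Ier2 and 97.2% a lower one than Nr4a1. Ier5 followed at 171 ± 20.7 TPM, Ier3 at 135 ± 28.6 TPM and Egr1 at 113 ± 30.1 TPM, each overlapping the next in this order. A gap separated these 5 genes from the rest, since the lowest Egr1 value (84.4 TPM) lay above the highest Nr4a2 value (37.01 TPM). Nr4a2 averaged 28.3 ± 6.83 TPM, Nr4a3 13.4 ± 2.83 TPM and Egr2 12.1 ± 1.24 TPM, and of these only Nr4a3 and Egr2 overlapped. Egr3 was lowest in all libraries, at 2.94 ± 0.339 TPM, above 7.89% of the genes tested. In mean TPM the leading member of each family stood well above the next, with Egr1 at 9.36 times Egr2, Nr4a1 at 16.9 times Nr4a2 and Ier2 at 3.07 times Ier5.

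**Figure D1:**
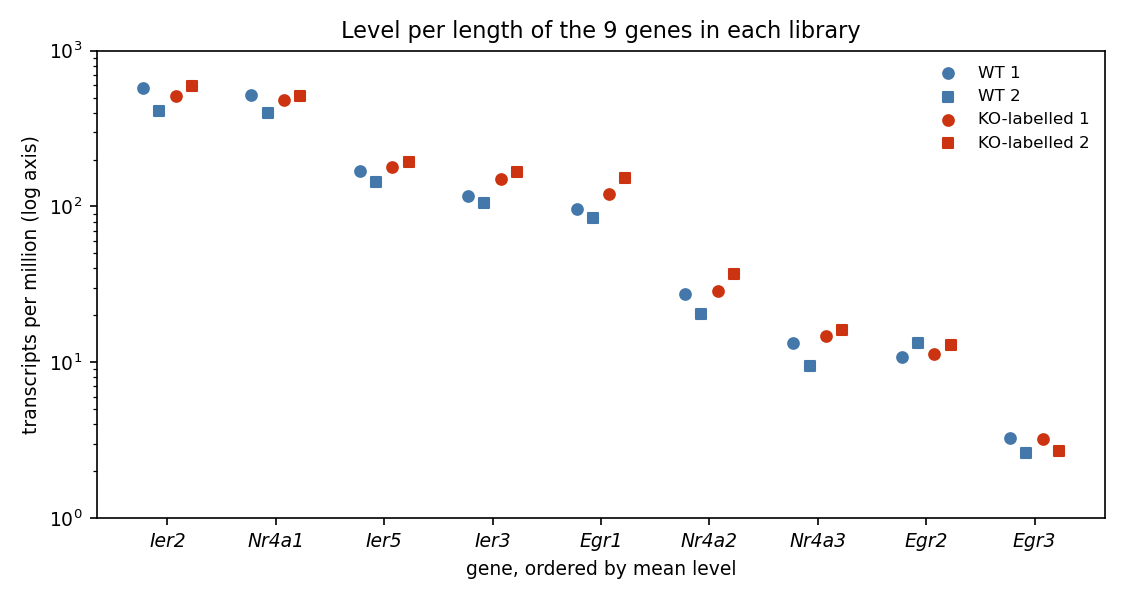
Level per length of each of the 9 genes, in TPM on a log axis, with 1 point per library (blue for WT, red for the KO-labelled libraries; circles for replicate 1, squares for replicate 2). Ier2 and Nr4a1 lie between 400.1 and 596 TPM, Egr3 between 2.61 and 3.25 TPM, and only Nr4a3 and Egr2 change places between libraries.

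The comparison of the groups asked whether these genes differ between ILC2s of WT and ICAM-1 KO mice under the same IL-33 challenge. Egr1 and Ier3 were higher in the KO-labelled libraries, by 1.479-fold and 1.404-fold, and the other 7 genes did not pass the test. None of the 9 was lower, and none had a negative change at an unadjusted p under 0.05 with edgeR, while DESeq2 and limma also called 2 higher and 0 lower. Thus 2 of 9 were called higher, beside 8.8% of all genes tested that were called higher, 4.97% called lower and 13.8% called in either direction (quasi-likelihood test of edgeR, adjusted p under 0.05 by Benjamini-Hochberg over all genes tested). No member also reached a 2-fold difference, the size the study asked for in its own calls, which 5.47% of all genes did. The median log2 fold change of the 9 genes was 0.22, and 7 of the 9 values were above 0, whereas the median over all genes tested was 0.011. Both KO-labelled libraries lay above both WT libraries for Egr1, Nr4a3, Ier3 and Ier5, that is 4 of 9 members, beside 28.3% of all genes tested. The opposite order was found for 0 of 9 members and for 31.3% of all genes tested. With 2 libraries a group an exact permutation test of a single gene cannot give a two-sided p below 0.333, and all p-values rest on the spread between these pools. In bulk RNA, fewer cells of a type and less RNA per cell cannot be told apart.

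**Figure D2:**
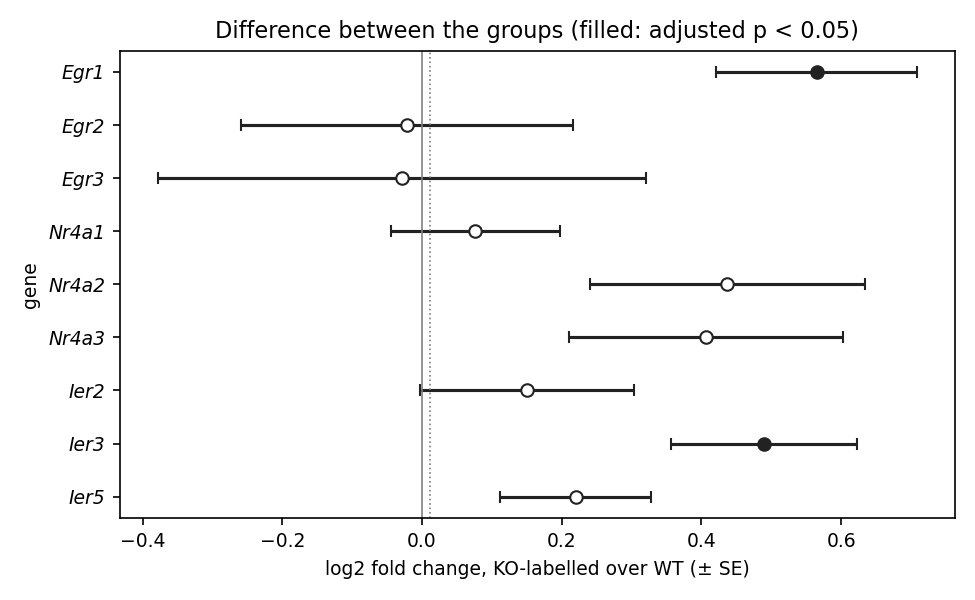
Log2 fold change of each gene, KO-labelled libraries over WT, with its standard error (2 libraries a group). Filled points passed an adjusted p of 0.05 (Egr1 and Ier3), the dotted line marks the median of all genes tested (0.011), and Egr3 has the widest error.

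Egr1 lies on mouse chromosome 18 and encodes the founding member of its family, a factor that binds GC-rich promoter sites and is the classic readout of ERK signalling. Its normalized counts were 143 and 128 in the WT libraries and 167 and 226 in the KO-labelled libraries. The groups did not overlap, but the second KO-labelled library stood higher above the first than that one stood above the higher WT library. The means were 135.5 ± 10.3 and 196.5 ± 41.5 (SD, n = 2), a log2 fold change of 0.56 with a standard error of 0.143 (adjusted p = 0.0342, edgeR). Without the second KO-labelled library the log2 fold change was 0.32 and was no longer called (adjusted p = 0.142, edgeR). The call was also lost without either WT library, with adjusted p-values of 0.0865 and 0.16, and without a filter on low counts (0.146). The call held without the first KO-labelled library (log2 fold change 0.77). Without the first or the second WT library the log2 fold change was 0.64 or 0.49. Each such fit leaves a single library in 1 group, so a call held or lost there does not show which libraries it rested on.

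Egr2 and Egr3 were measured at far lower levels and showed no called difference. Both are known in T cells as inducers of anergy genes. The normalized counts of Egr2 were 12.1 and 15.4 in WT and 12.0 and 14.5 in the KO-labelled libraries. These values interleaved, and the log2 fold change was -0.021 with a standard error of 0.238 (adjusted p = 0.965, edgeR). For Egr3 (chr14:70077203-70082614, plus strand, mm10) the normalized counts were 4.75 and 3.93 in WT and 4.44 and 3.92 in the KO-labelled libraries, from 122 to 143 counts a library. The log2 fold change was -0.029 with a standard error of 0.35 (adjusted p = 0.968, edgeR), the widest error of the 9 at this depth. The summed level of the Egr family was 111 and 100.3 TPM in WT and 134 and 168 TPM in the KO-labelled libraries, most of it Egr1.

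Egr2 (chr10:67535475-67542188, plus strand, mm10) has several RefSeq start sites, and the window before 1 of them is shown because it carries the element through which immediate early genes classically answer serum response factor (SRF), the CArG box. The 250 bases before that start (chr10:67537619-67537868, plus strand, RefSeq on GRCm38.p6) are given with the CArG box and the matches to TGACG, on either strand, in capitals. TGACG is the core of the cAMP response element that CREB proteins bind. The window lies within the annotated gene, directly before the first exon of other transcripts of it.
Egr2: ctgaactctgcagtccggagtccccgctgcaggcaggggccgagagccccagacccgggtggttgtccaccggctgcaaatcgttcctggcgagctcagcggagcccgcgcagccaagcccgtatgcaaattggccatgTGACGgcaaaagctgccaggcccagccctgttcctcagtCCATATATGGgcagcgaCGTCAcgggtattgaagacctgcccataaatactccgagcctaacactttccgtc
The CArG box lies 72 to 63 bases before the start, and the nearer of the 2 TGACG matches 55 to 51 bases before it. The 5 Egr2 windows, of which 3 overlap and share this box, hold 2 distinct CArG boxes. Over all genes, 1.47% of the 32851 RefSeq windows of this length hold one, and the window was chosen for its box, so this share is given as a description. Of the 9 members, 6 had such a window, and Egr1, Egr3 and Ier2 did not.

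Among the Nr4a genes none passed the test, and only the most abundant of them, Nr4a1, had both KO-labelled libraries within the range of the WT libraries. Nr4a1 (chr15:101254269-101274795, plus strand, mm10), whose product NUR77 is widely used as a reporter of antigen receptor signalling, had normalized counts of 605 and 476 in WT and 528 and 589.8 in the KO-labelled libraries. These values rested on at least 15024 counts a library. The log2 fold change was 0.076 with a standard error of 0.121 (adjusted p = 0.719, edgeR). Nr4a2 (chr2:57106830-57124003, minus strand) encodes NURR1, known for its role in dopamine neurons and induced in activated lymphocytes. It had normalized counts of 36.7 and 28.02 in WT and 36.2 and 49.5 in the KO-labelled libraries. The groups overlapped by a narrow margin, and the log2 fold change of 0.44 with a standard error of 0.197 was not called (adjusted p = 0.173, edgeR). Nr4a3 (chr4:48045153-48086447, plus strand) encodes NOR1 and had normalized counts of 26.3 and 19.3 in WT and 27.5 and 31.7 in the KO-labelled libraries. Here the groups did not overlap, yet the first KO-labelled library exceeded the first WT library by little, and the log2 fold change of 0.41 with a standard error of 0.196 was not called either (adjusted p = 0.2, edgeR). The summed level of the Nr4a family was 563 and 429.9 TPM in WT and 525 and 563 TPM in the KO-labelled libraries.

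The 3 Nr4a genes share a feature of sequence that the choice of members did not use. Their promoters are known targets of CREB and its coactivators, and the bases before the RefSeq starts are shown with the matches to TGACG, on either strand, in capitals (GRCm38.p6; Nr4a1 chr15:101266596-101266845, plus strand; Nr4a2 chr2:57124004-57124253, minus strand; Nr4a3 chr4:48045055-48045152, plus strand, cut where the first exon of GENCODE M21 begins). The Nr4a1 window lies inside the annotated gene, since longer transcripts start before it.
Nr4a1: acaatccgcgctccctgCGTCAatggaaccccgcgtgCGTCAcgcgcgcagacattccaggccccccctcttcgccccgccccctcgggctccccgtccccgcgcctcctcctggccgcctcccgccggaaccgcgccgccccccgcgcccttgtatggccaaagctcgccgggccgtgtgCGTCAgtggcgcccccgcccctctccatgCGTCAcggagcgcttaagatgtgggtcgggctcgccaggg
Nr4a2: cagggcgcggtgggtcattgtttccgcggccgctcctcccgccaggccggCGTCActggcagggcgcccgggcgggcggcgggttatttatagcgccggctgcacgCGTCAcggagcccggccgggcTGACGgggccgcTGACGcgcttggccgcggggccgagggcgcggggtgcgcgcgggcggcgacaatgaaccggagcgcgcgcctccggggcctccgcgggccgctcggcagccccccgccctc
Nr4a3: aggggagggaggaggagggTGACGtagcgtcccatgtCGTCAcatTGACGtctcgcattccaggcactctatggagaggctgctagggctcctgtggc
In the full windows of 250 bases each of the 3 genes held 4 matches, of which 3 stand in the shorter stretch shown for Nr4a3, and no 2 matches overlapped. Of all 32851 windows 17.8% held at least 1 match and 0.137% (45 windows) held at least 4, a number chosen after the Nr4a windows had been seen. These shares were not matched for base composition, and G and C made up 74.4% of the Nr4a1 window, 80.0% of that of Nr4a2 and 63.6% of that of Nr4a3. The complete palindrome TGACGTCA, found in 1.55% of windows, was in none of the members' windows, nor were AAAGGTCA, the sequence that NR4A monomers bind (1.34% of windows), and GCGTGGGCG, an Egr site (0.536%). The windows of Ier3 and Ier5 held none of these motifs. A match is a description of letters and does not show that a factor was bound.

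Of the Ier genes, Ier3 was called higher, and Ier2 and Ier5 were not called. Ier3 (chr17:35821684-35822923, plus strand, mm10), a stress-induced regulator of cell survival, had normalized counts of 43.4 and 40.3 in WT and 53.4 and 61.9 in the KO-labelled libraries. The WT libraries lay close together and both KO-labelled libraries lay clearly above them. The means were 41.9 ± 2.17 and 57.6 ± 6 (SD, n = 2), a log2 fold change of 0.49 with a standard error of 0.134 (adjusted p = 0.0428, edgeR). This call, too, was lost without either WT library (adjusted p = 0.097 and 0.154) and without the second KO-labelled library (0.226), a test without a filter on low counts gave 0.14, and an older form of the same test gave 0.0575. Ier2 (chr8:84661331-84662852, minus strand), a single-exon gene whose product is found in the nucleus, had normalized counts of 289 and 211 in WT and 245 and 299 in the KO-labelled libraries. The groups overlapped, with a log2 fold change of 0.15 and a standard error of 0.153 (adjusted p = 0.555, edgeR). Ier5 (chr1:155096361-155099636, minus strand), also a single-exon gene and known as a partner of the heat shock factor HSF1, had normalized counts of 182.6 and 159 in WT and 182.7 and 208 in the KO-labelled libraries. The groups were separated only by the near-equal values of both first libraries, and the log2 fold change of 0.22 with a standard error of 0.109 was not called (adjusted p = 0.21, edgeR). The summed level of the 3 Ier genes was 861 and 657 TPM in WT and 846 and 954 TPM in the KO-labelled libraries.

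Most of the endothelial, macrophage and monocyte, T cell and B cell markers given above were higher in the same libraries as Egr1 and Ier3. The part of such cells in these differences was not tested. No member locus overlapped another gene in the annotation.

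**Figure D3:**
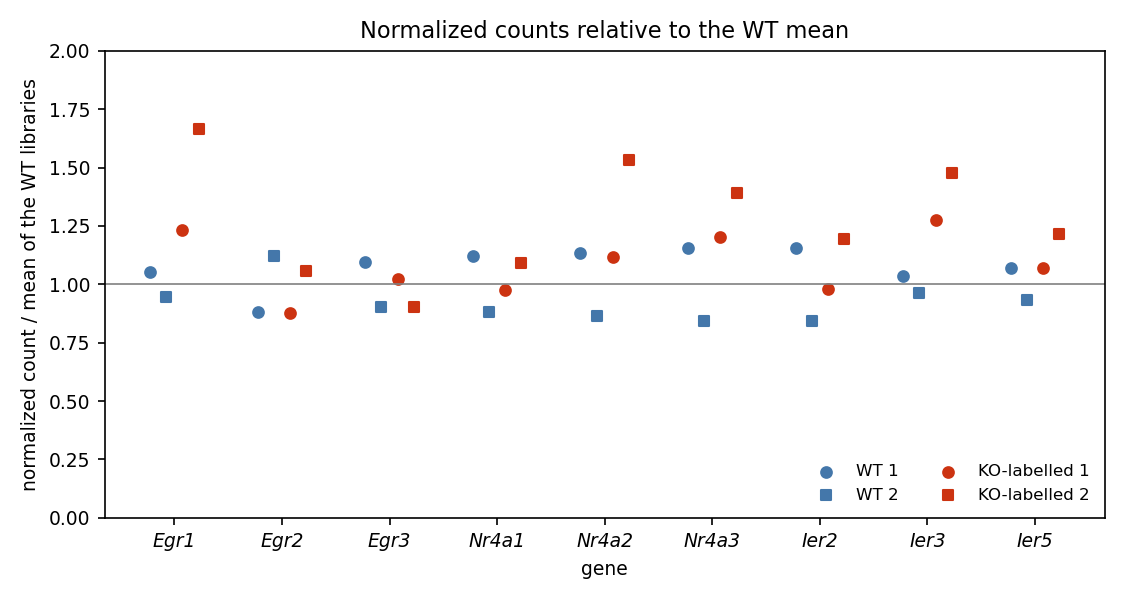
Normalized count of each gene in each library divided by the mean of the WT libraries (grey line at 1), with 1 point per library (blue for WT, red for the KO-labelled libraries; circles for replicate 1, squares for replicate 2). For 8 of the 9 genes the WT circle lies above the WT square and for 8 the red square lies above the red circle.

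Within the groups most members were ordered alike. The first WT library was higher than the second for 8 of the 9 genes, Egr2 being the exception, by a median of 0.28 on the log2 scale over the 9. The second KO-labelled library was higher than the first for 8 of the 9, Egr3 being the exception, by a median of 0.21. Both orders together were found for 7 of 9 members (77.8%) and for 25.3% of all genes tested. The same 2 orders were found in 12 of 19 other immediate early genes listed (63.2%) and in 8 of 17 genes of the tissue digestion list (47.1%). Split after the values were seen, that list showed both orders in 7 of its 8 early response genes, Socs3 being the exception, and in 1 of its 9 heat shock genes, Dnajb1. Genes induced together are not independent of each other, so these shares are a description of the libraries. The median distance between the WT libraries was 0.34 on the log2 scale for the members and 0.18 for all genes tested, so the members varied more between pools of 1 genotype than a typical gene did. For Nr4a1 and Ier2 the gap between the WT libraries (0.35 and 0.46) exceeded the log2 fold change between the groups (0.076 and 0.15).

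**Figure D4:**
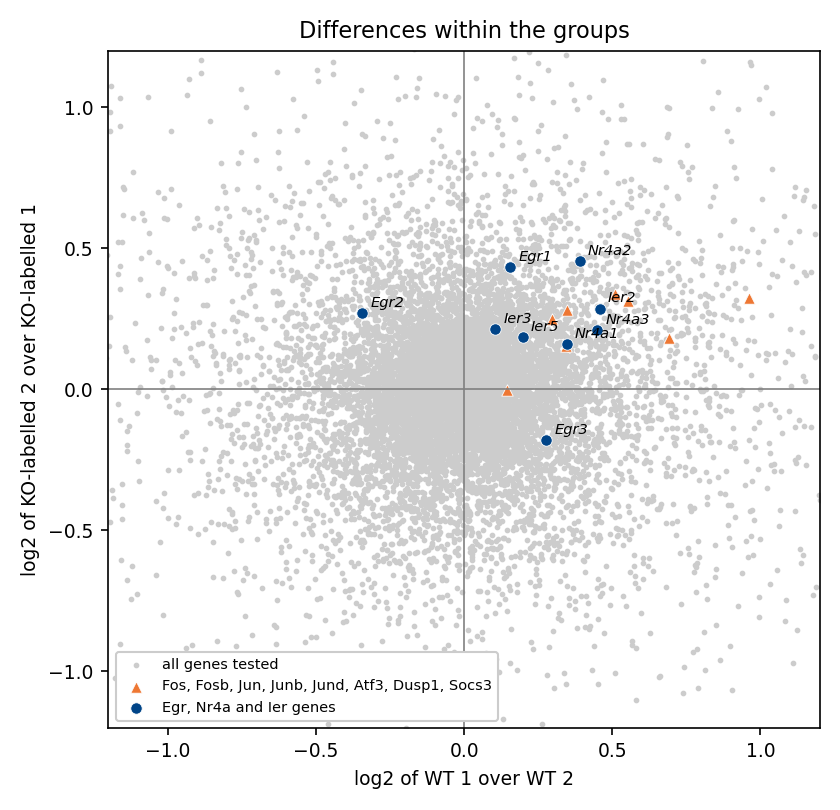
Log2 ratio of the first over the second WT library (horizontal) against the log2 ratio of the second over the first KO-labelled library (vertical), for all genes tested (grey), the 9 members (blue circles) and the 8 early response genes of the tissue digestion list (orange triangles). Of the members 7 lie in the upper right part, as do 7 of the 8 other genes, and 433 grey genes fall outside the axes.

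The genes whose levels over the 4 libraries most resembled those of the leading member of each family were found among 8918 other genes whose mean normalized count reached 10, by the distance between centred log2 values. For Egr1 the nearest were Sh3rf1, Ubash3b and Chka, at distances of 0.0663, 0.0738 and 0.0788. Ier3 was 40th in this order and Nr4a2 83rd, nearer than the other members compared. Egr3 was not compared, since its mean normalized count was below 10. For Nr4a1 the nearest were Mpnd, Scfd1 and Lrp6 (0.0252, 0.0275 and 0.0283), and for Ier2 they were Pigb, Gla and Mfge8 (0.0521, 0.0525 and 0.0622). Ier2 and Nr4a1 resembled each other, at a distance of 0.141, more than either resembled Egr1 (0.455 and 0.521). With 4 libraries many genes come this close, and the order describes only these values.

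Genes around the members were read from 6 lists, chosen from general knowledge but with earlier results of these data known. In them 18 of 75 genes tested were higher and 5 were lower in the KO-labelled libraries. Over all genes tested 8.8% were called higher and 4.97% lower, the shares to set beside this count and each list below. Among relatives and cofactors, 1 of 5 genes tested was higher and 0 lower. Rxra encodes a retinoid X receptor that pairs with some NR4A receptors. It had normalized counts of 7.76 and 9.15 in WT and 18.7 and 21.8 in the KO-labelled libraries. The log2 fold change was 1.29 (adjusted p = 0.00945, edgeR). Without the first WT library Rxra had a log2 fold change of 1.175 and was not called. Its other family member tested, Rxrb, stood at 48.6 and 50.1 in WT and 48.1 and 49.1 in the KO-labelled libraries. The Egr corepressors Nab1 and Nab2 were not called, with log2 fold changes of 0.18 and 0.21. Egr4, the remaining Egr gene, had 18 to 34 counts a library and did not pass the filter on low values, nor did Rxrg.

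Of 18 transcription factors and cofactors that act on immediate early promoters, 3 were higher and 1 lower. Srf, the factor of the CArG box, was not called (log2 fold change -0.021, adjusted p = 0.89, edgeR), nor was Creb1 (0.13). The partner of SRF that was called, Elk3, had normalized counts of 92.1 and 88.2 in WT and 70.6 and 62.3 in the KO-labelled libraries, a fall of 0.42 on the log2 scale (log2 fold change -0.42, adjusted p = 0.0385). The calcium-responsive factors Nfatc1 and Nfatc3 rose by 0.46 and 0.44 on the log2 scale (adjusted p = 0.0212 and 0.0301), and Mef2c by 1.82 (adjusted p = 0.00418) from normalized counts of 5.12 and 9.28 to 26.1 and 24.02. Without either WT library 1 gene of the list was called higher and 0 lower, and the calls of Elk3, Nfatc1 and Nfatc3 were each lost under 4 of 11 alternatives. Mef2c is known from B cells, myeloid cells and endothelium. Most B cell, macrophage and monocyte, and endothelial markers were higher in the same libraries, and the part of such cells in its rise was not tested. In the ERK cascade, from RAS to ERK, 0 of 10 genes were called by edgeR, while DESeq2 called 1 higher and 2 lower and limma 2 lower. With edgeR 3 of the 10 had an unadjusted p under 0.05, beside 3542 of all 11711 genes tested. Map2k2 (MEK2) had a log2 fold change of -0.31 (adjusted p = 0.0538, edgeR; 0.023 with DESeq2 and 0.0397 with limma).

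Other immediate early genes split in direction, with 5 of 19 higher and 3 lower. Btg2, which restrains cell division, had normalized counts of 93.0 and 111 in WT and 308.4 and 311.5 in the KO-labelled libraries, a log2 fold change of 1.63 (adjusted p = 0.000131, edgeR). Ppp1r15a, a phosphatase subunit of the stress response, and Mcl1, a survival factor, rose by 0.59 and 0.38 on the log2 scale (adjusted p = 0.0095 and 0.0195). Rgs1, a regulator of G protein signalling, and Nfil3, a transcription factor needed for innate lymphoid cells to develop, fell by 0.35 and 0.36 on the log2 scale (adjusted p = 0.0358 and 0.0473, edgeR). The call of Rgs1 was lost under 4 of 11 alternatives, that of Nfil3 under 5, that of Mcl1 under 4 and that of Ppp1r15a under 2. Without either WT library or without the first KO-labelled library 0 genes of the list were called lower, and 2 were called higher without the second WT library.

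Of 11 genes that Egr2 and Egr3 are known to regulate in T cells, 6 of 8 tested were higher and 1 lower. Lag3, Crtam and Sema7a did not pass the filter on low values. Nrn1, counted among the 6, had normalized counts of 0.726 and 1.46 in WT and 9.72 and 14.75 in the KO-labelled libraries. Nrn1 thus reached the summed minimum of 10 only through the libraries where it was high. Over all genes tested 8.8% were higher and 4.97% lower, and this list was chosen with earlier results known. The log2 fold changes of Egr2 and Egr3 themselves were -0.021 and -0.029. The count of 6 fell to 1 without the first WT library, to 3 without the second, to 4 without either KO-labelled library and to 1 when genes with low counts were kept. The diacylglycerol kinases Dgka and Dgkz and the ubiquitin ligase Cblb, which dampen antigen receptor signals, rose by 0.63, 0.50 and 0.46 on the log2 scale (adjusted p = 0.00945, 0.0276 and 0.0488, edgeR). Tnfrsf9, the costimulatory receptor 4-1BB, rose by 1.03 (adjusted p = 0.0413) from 69.8 and 143 to 180.0 and 246 normalized counts. The call of Cblb was lost under 9 of 11 alternatives, that of Tnfrsf9 under 4, with an adjusted p of 0.195 by DESeq2, and those of Dgka and Dgkz under 3 each. Nfil3, counted above, was the gene that fell. Of 7 T cell markers, 4 were higher in the same libraries, among them Foxp3 and Trac. Cd3e, Cd3g and Cd8a were not called, with log2 fold changes of 0.17, -0.33 and -0.037. The part of T cells in these differences was not tested.

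The list of genes known to rise during tissue digestion, without the 9 members, had 3 of 17 higher and 1 lower, with a median log2 fold change of -0.082. Fos and Junb, with values of -0.20 for both, were not called, and neither were Fosb (0.063), Jun (0.31), Jund (-0.14), Atf3 (-0.32), Dusp1 (-0.082) and Socs3 (0.21). The 3 genes that were higher all encode chaperones. Hspa1a and Hspa1b, near-identical copies of the inducible HSP70 gene whose reads could not be assigned with certainty, rose by 2.50 and 2.24 on the log2 scale (adjusted p = 0.0011 and 0.000634, edgeR), and Dnaja1 by 0.37 (adjusted p = 0.023). Hspe1, a mitochondrial chaperonin, fell by 0.50 (adjusted p = 0.0141). The call of Dnaja1 was lost under 4 of 11 alternatives and that of Hspe1 under 2.

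**Figure D5:**
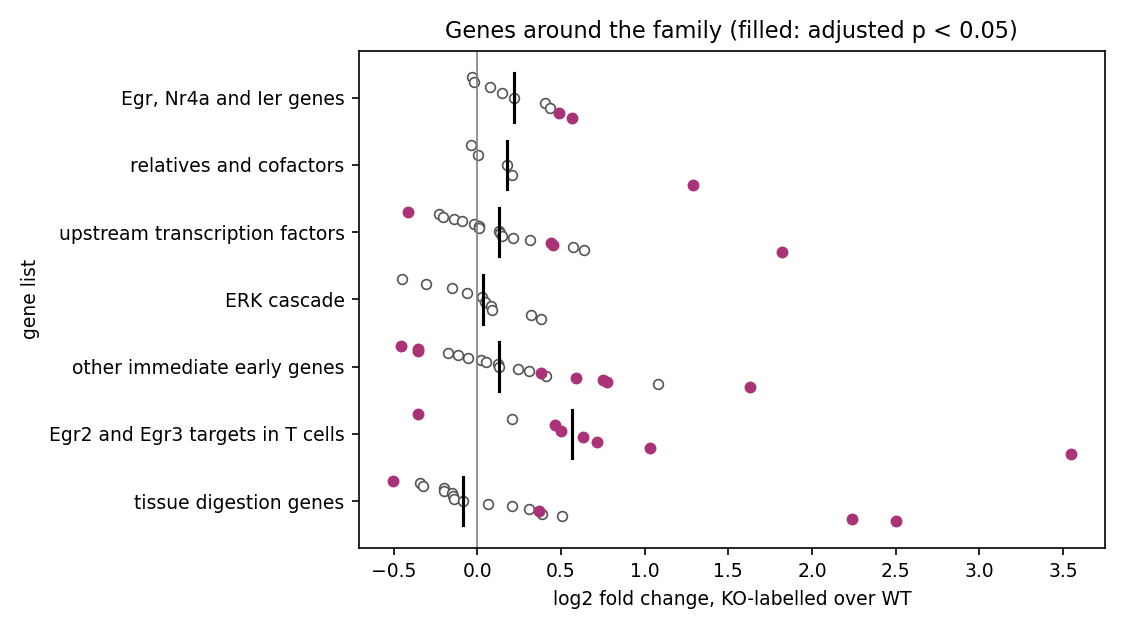
Log2 fold change of every tested gene of the members and of the 6 lists around them, KO-labelled libraries over WT, with 1 point per gene (filled where the adjusted p was under 0.05) and a black bar at each list's median. The members lie between -0.029 and 0.56, a narrower range than the other lists, and Btg2, Mef2c, Hspa1a and Nrn1 (3.55) reach far beyond them. Nrn1 passed the filter on low values only through the KO-labelled libraries.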

How the data were processed

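RNA (10 ng a library) of sorted lung ILC2s (lineage negative, CD45+, ST2+, CD127+) was sequenced. The deposited expected counts are the authors' gene-level estimates, of which 53.3% are whole numbers, from Partek after STAR alignment to mm10 with GENCODE M20 annotation. The deposited normalized signal is the authors' upper quartile scaling of the same counts, (count + 1) times 1 factor per library.

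The counts were rounded and tested with edgeR 4.0.16 (quasi-likelihood, upper quartile factors) in R 4.3.3, with Benjamini-Hochberg adjustment over the 11711 genes whose normalized counts averaged 1 or more and summed to 10 or more, the study's filter. The study's own test in Partek was not run here. The standard error is the log2 fold change divided by the square root of F. TPM used GENCODE M21 exon lengths. The test was also run on simulated data for this comparison, with 200 of 11711 genes changed, fewer than were called in the data. It recovered 67.8% of changes of 1 and 93% of changes of 2 on the log2 scale. Of its calls 7.21% and 3.38% were false. The simulated spread followed the trend over levels, without the extra spread of single genes. The members varied more between the WT libraries than a typical gene did, so these rates may not hold for them. Smaller changes, such as those of Egr1 (0.56) and Ier3 (0.49), were not simulated, so the recovery of changes of that size is not known.

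Groups and replicate numbers came from the labels. Same-numbered libraries shared only a number. Alternatives were TMM factors, DESeq2 1.42.0, limma 3.58.1 on log2(normalized count + 1), the older quasi-likelihood form, no filter, at least 10 counts in every library, the replicate number as a block, and leaving out each library in turn. All 9 members were named, with up to 5 called genes of each list (the most abundant), otherwise its 2 most abundant, and the 3 nearest patterns of each family's most abundant member; 1 gene that this rule names is not reported here. Srf, Creb1, Nab1, Nab2, Rxrb, Nrn1 and the AP-1 genes named were chosen after their values were seen. The members and lists were chosen with earlier results of these data known. Whether counting used strand is not given in the sources used here.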

Additional observations from a re-analysis of the deposited data

How the results depend on the processing

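Under every alternative 0 members were lower and 0 reached a called 2-fold difference. The count of members called higher, 2 as reported, was 2 with TMM factors, DESeq2, limma and a minimum of 10 counts in every library, 1 (Egr1) with the older quasi-likelihood form and with the replicate block, and 0 without a filter on low counts, and it ranged from 0 to 3 when 1 library was left out. It was 3 without the first KO-labelled library and 0 without the first WT, the second WT or the second KO-labelled library. The replicate block, for which the labels give no shared animal and same-numbered libraries did not deviate together (correlation -0.058 over genes), gave Ier3 an adjusted p of 0.0511. Over the 11 alternatives Egr1 was called in 7, with adjusted p from 0.000146 to 0.16, and Ier3 in 5, from 0.018 to 0.226. Nr4a2 was called once, without the first KO-labelled library (log2 fold change 0.65, adjusted p = 0.04). Leaving out 1 library turned the direction of uncalled members, whose log2 fold changes ranged from -0.18 to 0.16 for Egr2, from -0.16 to 0.11 for Egr3, from -0.087 to 0.26 for Nr4a1 and from -0.060 to 0.40 for Ier2.

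Of the genes on the other lists, 18 higher and 5 lower as reported, 6 and 0 were called without a filter, 8 were lower with DESeq2 and also with limma, and leaving out 1 library gave 8 to 17 higher and 0 to 4 lower. Of 18 called genes named from them, Btg2, Mef2c, Hspa1a and Hspa1b were called under all 11 alternatives, and none changed direction. The cause of these changes was not tested. Without a filter the number of genes was larger (22158). With 1 library left out, the group left with a single library is assumed to vary like the other group. With the longest transcript as length, Nr4a1 ranked above Ier2, which stood at 79.3% of it and at 109% with exon lengths. The order of the other 7 genes was the same.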
